A study of Mus musculus with 12 samples.

Results

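The genes described here are 50 genes of G2 and mitosis, named from what is known of cell division and followed across double-negative thymocytes of 3 genotypes. Each gene was read by its brightest probe among those with a detection p-value under 0.05 on at least 3 of 12 arrays. Of the 50 genes, 39 were measured in this way, among 10526 genes tested in all. Ccnb2, Nek2, Bub1, Cenpe, Nuf2, Hmmr, Kif20a and Racgap1 had a probe that was not detected on 3 arrays, and Ccnb1, Tacc3 and Mki67 had no probe under that symbol in the annotation used here. Of the 39 measured genes, 33 were detected on all 12 arrays. The other 6 were Melk (11 arrays), Ube2c (10), Ccna2 and Pttg1 (8 each), and Ttk and Ncapg (7 each).

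The samples were sorted thymocytes with neither CD4 nor CD8 on the surface, the immature stages of T-cell development, from C57BL/6 mice aged 2 months, each read on 1 Illumina MouseWG-6 expression array. The first group carried a CD2-Lmo2 transgene and a Lyl1 knockout (3 arrays, called Lmo2 Lyl1-knockout), the second a CD2-LMO2 transgene with Lyl1 left in place (3 arrays, called Lmo2), and the third was wild-type (6 arrays). The CD2 promoter drives the transgene in lymphoid cells, and both transgenic groups carry it. By its title, the study asked whether Lyl1 is needed in an Lmo2 mouse model of leukaemia that resembles early T-cell precursors. The labels do not say whether arrays of a group come from separate mice, so every p-value reflects only variation among the samples at hand, part of which may be technical. The raw table's headers give wild-type replicates 4 to 6 the extra word NHD13, which the labels do not use, and these 3 arrays were read as wild-type and also set apart.

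A cell enters mitosis when Cdk1, bound to cyclin A or cyclin B, is switched on by phosphatases of the Cdc25 family, and the kinases Plk1, Aurka and Aurkb then drive spindle assembly and chromosome attachment. The spindle checkpoint holds back the anaphase-promoting complex until every kinetochore is attached, after which Cdc20 directs the destruction of securin and cyclin B. Most of these genes are transcribed in G2 by the MuvB complex with B-Myb and Foxm1. Double-negative thymocytes divide in bursts, above all after the pre-T-cell receptor has signalled.

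Lyl1 was not detected on any of the 3 Lmo2 Lyl1-knockout arrays (log2 values 4.80, 5.03 and 4.90), against 10.01, 10.19 and 11.64 in Lmo2 and 6.66 to 7.25 in wild-type thymocytes, where it was detected on every array. The arrays detected 37.9% to 43.0% of probes. Pearson correlations between arrays of a group over kept probes, which are not independent, were 0.980 to 0.988 for Lmo2 Lyl1-knockout, 0.919 to 0.965 for Lmo2 and 0.947 to 0.992 for wild-type. The Lmo2 arrays were thus the least alike of the 3 groups. Counts and medians of the mitosis genes that rest on them are also given without single arrays. Calls of other genes are given from all 12 arrays only, and how far they depend on single Lmo2 arrays is not shown. Thy1 (13.62 to 14.44) and Cd3e (13.40 to 13.58), both T-lineage genes, were bright on every array. Ptcra, the pre-T-cell receptor alpha chain, read 9.43, 9.10 and 8.72 in Lmo2 Lyl1-knockout, 5.11, 6.67 and 6.90 in Lmo2, detected on 2 of 3 arrays, and 8.50 to 9.49 in wild-type thymocytes. It fell by 2.78 on the log2 scale in Lmo2 against wild-type (limma adjusted p = 0.000241) and rose by 2.85 in Lmo2 Lyl1-knockout against Lmo2 (0.000682). Rag1, a recombinase of antigen receptor genes, read 10.75, 11.14 and 10.84 in Lmo2 Lyl1-knockout, 9.34, 9.48 and 9.87 in Lmo2 and 10.88 to 11.33 in wild-type thymocytes. It fell by 1.57 in Lmo2 against wild-type (adjusted p = 3.19e-05) and rose by 1.35 in Lmo2 Lyl1-knockout against Lmo2 (0.000419). They were the 2 of 8 immature thymocyte markers that passed in these comparisons, and the list's summed linear levels were 49000 to 52000 in Lmo2 Lyl1-knockout, 42800 to 48300 in Lmo2 and 47600 to 53000 in wild-type thymocytes. The part of these marker differences in the mitosis gene values was not tested. Cd8a was not detected in any group, while Cd8b1 was detected on all 12 arrays, and Cd4 was detected on 3 of 3 Lmo2 Lyl1-knockout, 1 of 3 Lmo2 and 2 of 6 wild-type arrays.

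The promoters show the sequence elements that many of these genes share. RefSeq promoters (GRCm38.p6) were listed for 42 of the 50 genes, with 45 start sites. The 250 bases before each start were searched on both strands for the cell-cycle genes homology region (CHR), the element that MuvB contacts, taken as TTTGAA or TTCGAA, and for the CCAAT box (CCAAT), to which the factor NF-Y binds. A match of one motif may share letters with a match of another. A CHR match lay in 18 of 45 promoters (40%), against 17.1% of all 32851 listed promoters, a CCAAT match in 35 (77.8%, against 33.8%), and both in 17 (37.8%, against 6.02%). The lines below give the 120 bases before the start for 6 genes that hold both motifs in this stretch and for Plk1 and Cdc25b, which show a CCAAT match and no CHR match and whose values are described further on. Capitals mark the matches, on either strand.
Cdk1: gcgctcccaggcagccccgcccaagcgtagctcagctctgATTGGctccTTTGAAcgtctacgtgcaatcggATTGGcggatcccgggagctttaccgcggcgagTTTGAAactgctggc
Top2a: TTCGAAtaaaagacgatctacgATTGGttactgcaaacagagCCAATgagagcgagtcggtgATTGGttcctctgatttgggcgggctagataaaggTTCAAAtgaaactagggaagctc
Cdc20: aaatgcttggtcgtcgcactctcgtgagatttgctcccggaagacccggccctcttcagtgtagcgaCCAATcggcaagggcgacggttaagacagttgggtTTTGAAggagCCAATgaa
Kif11: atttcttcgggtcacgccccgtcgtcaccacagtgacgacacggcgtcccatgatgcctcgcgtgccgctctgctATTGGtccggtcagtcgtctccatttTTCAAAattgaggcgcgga
Kif22: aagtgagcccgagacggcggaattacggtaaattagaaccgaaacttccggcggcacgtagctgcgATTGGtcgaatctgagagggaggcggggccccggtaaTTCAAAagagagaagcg
Ube2c: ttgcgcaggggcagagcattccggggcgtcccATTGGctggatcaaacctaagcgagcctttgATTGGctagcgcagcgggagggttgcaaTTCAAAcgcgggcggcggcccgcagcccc
Plk1: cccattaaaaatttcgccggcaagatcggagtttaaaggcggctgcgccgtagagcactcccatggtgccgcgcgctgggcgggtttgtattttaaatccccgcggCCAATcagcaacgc
Cdc25b: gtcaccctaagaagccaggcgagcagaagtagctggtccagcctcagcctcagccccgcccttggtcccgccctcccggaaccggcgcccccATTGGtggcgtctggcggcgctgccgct
These stretches lie, 5′ to 3′ on the gene's strand, at Cdk1 chr10:69352913-69353032 (minus strand), Top2a chr11:99024190-99024309 (minus strand), Cdc20 chr4:118437344-118437463 (minus strand), Kif11 chr19:37376262-37376381 (plus strand), Kif22 chr7:127042421-127042540 (minus strand), Ube2c chr2:164769809-164769928 (plus strand), Plk1 chr7:122159315-122159434 (plus strand), Cdc25b chr2:131186828-131186947 (plus strand). A match is a description of letters and not a binding site. Of the 39 measured genes, 14 have a listed promoter with a CHR match and 18 one without. Their medians, as log2 value minus the wild-type mean, were -0.02, 0.00 and -0.04 with a match and 0.15, 0.16 and 0.14 without one on the Lmo2 Lyl1-knockout arrays. On Lmo2 replicates 1, 2 and 3 they were -0.48, 0.21 and -0.40 with a match and -0.48, 0.29 and -0.16 without one. Both sets were thus low on Lmo2 replicate 1 and high on replicate 2.

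No mitosis gene passed the test in any comparison of genotypes. What the data show in its place is a wide spread among the 3 Lmo2 arrays: most of the 39 genes were low on replicate 1, high on replicate 2 and low or middling on replicate 3, while the Lmo2 Lyl1-knockout arrays lay close together. In a bulk sample, fewer cells in mitosis and less RNA per cell cannot be told apart.

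**Figure D1:**
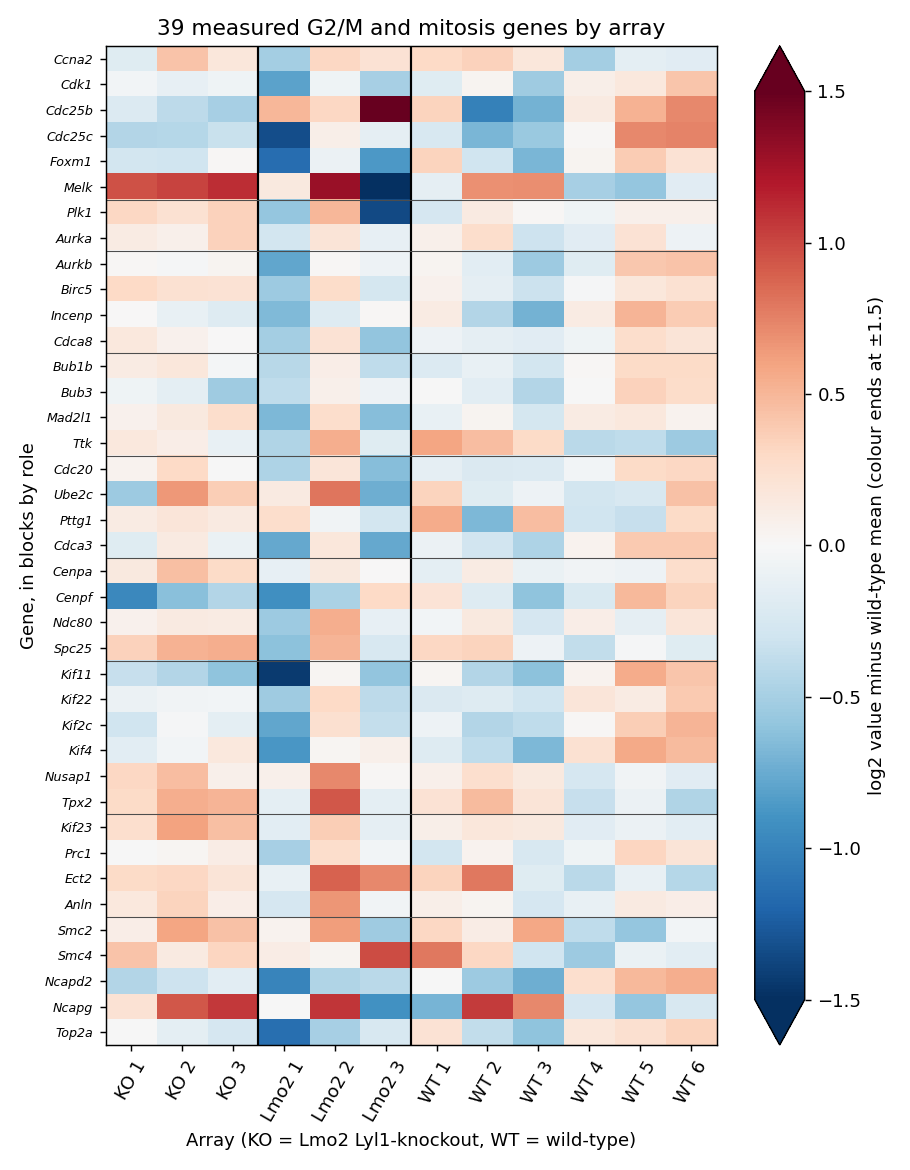
Log2 value minus the wild-type mean for the 39 measured genes (rows, in blocks by role) on the 12 arrays (columns), with Lmo2 Lyl1-knockout (KO) left, Lmo2 in the middle and wild-type (WT) right. Blue runs down most of the Lmo2 1 column, where the median gene lies 0.50 below the wild-type mean, and red down the Lmo2 2 column, where it lies 0.24 above.

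Among the genes that start mitosis, Cdk1, the kinase that triggers entry, read 11.25, 11.17 and 11.22 on the Lmo2 Lyl1-knockout arrays, 10.49, 11.22 and 10.79 on the Lmo2 arrays and 10.76 to 11.71 (median 11.35) on the wild-type arrays, all on the log2 scale. Its groups overlapped, and only Lmo2 replicate 1 lay outside the wild-type range. The log2 difference was -0.46 ± 0.20 for Lmo2 against wild-type (SE; limma adjusted p = 0.181) and 0.38 ± 0.24 for Lmo2 Lyl1-knockout against Lmo2 (0.394). Foxm1, the forkhead factor that transcribes many G2 genes, read 8.93, 8.90 and 9.22 in Lmo2 Lyl1-knockout, 8.06, 9.12 and 8.34 in Lmo2 and 8.52 to 9.59 (median 9.33) in wild-type thymocytes. Lmo2 replicates 1 and 3 lay below every wild-type array and replicate 2 among them. Its difference between Lmo2 and wild-type was -0.70 ± 0.27 (adjusted p = 0.119), the lowest adjusted p among the 39 genes in that comparison.

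Cdc25b, a phosphatase that activates Cdk1 at the onset of mitosis, read 7.50, 7.31 and 7.21 in Lmo2 Lyl1-knockout, 8.20, 8.02 and 10.01 in Lmo2 and 6.69 to 8.43 (median 7.94) in wild-type thymocytes. One array, Lmo2 replicate 3, stood 2.30 above the wild-type mean, and all 3 Lmo2 Lyl1-knockout arrays lay below all 3 Lmo2 arrays. The differences were -1.40 ± 0.53 for Lmo2 Lyl1-knockout against Lmo2 (adjusted p = 0.133) and 1.04 ± 0.46 for Lmo2 against wild-type (0.175). They were the largest in each comparison by the brightest probe, and neither passed the test. A dimmer kept probe of Cdc25b differed less, by -0.43 and 0.50 in turn (limma adjusted p = 0.608 and 0.399 over all kept probes). Cdc25c, a second activator of Cdk1, read 6.95, 6.96 and 7.05 in Lmo2 Lyl1-knockout, 6.06, 7.47 and 7.25 in Lmo2 and 6.70 to 8.13 (median 7.28) in wild-type thymocytes. Lmo2 replicate 1 alone was below the wild-type range. Melk, a kinase that rises in dividing progenitor cells, read 7.26, 7.32 and 7.42 in Lmo2 Lyl1-knockout, 6.45, 7.60 and 4.53 in Lmo2 and 5.73 to 7.01 (median 6.16) in wild-type thymocytes. Lmo2 replicate 3 did not detect it, so 4.53 is a background value, and every Lmo2 Lyl1-knockout array lay above every wild-type array. That difference, 1.02 ± 0.52, had an adjusted p of 0.462, and the difference from Lmo2, which includes the undetected value, was 1.14 ± 0.60 (0.30). Dimmer kept probes of Melk differed less, by 0.37 and 0.17 from wild-type and by 0.58 and -0.13 from Lmo2. None of these passed the threshold.

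Plk1, the polo-like kinase of spindle assembly, read 11.26, 11.18 and 11.29 in Lmo2 Lyl1-knockout, 10.37, 11.45 and 9.60 in Lmo2 and 10.70 to 11.08 in wild-type thymocytes. Wild-type arrays varied little, with an SD of 0.14, whereas no Lmo2 array lay within their range. Replicates 1 and 3 were below it and replicate 2 above it. The differences were 0.77 ± 0.34 for Lmo2 Lyl1-knockout against Lmo2 (adjusted p = 0.195), 0.30 ± 0.29 for Lmo2 Lyl1-knockout against wild-type (0.673) and -0.48 ± 0.29 for Lmo2 against wild-type (0.331). Aurka, the kinase of spindle poles, stayed between 9.83 and 10.49 on all 12 arrays.

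The 4 subunits of the chromosomal passenger complex, which corrects wrong attachments of chromosomes, were all measured. Aurkb, its kinase, read 10.86, 10.82 and 10.88 in Lmo2 Lyl1-knockout, 10.06, 10.86 and 10.76 in Lmo2 and 10.30 to 11.27 (median 10.78) in wild-type thymocytes. Birc5, the survivin subunit, read 12.16, 12.09 and 12.08 in Lmo2 Lyl1-knockout, 11.32, 12.13 and 11.60 in Lmo2 and 11.54 to 12.09 (median 11.88) in wild-type thymocytes. Both were below the wild-type range on Lmo2 replicate 1 alone. The scaffold Incenp and the borealin gene Cdca8 had differences of -0.28 ± 0.26 and -0.29 ± 0.18 between Lmo2 and wild-type, with adjusted p-values of 0.538 and 0.338.

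**Figure D2:**
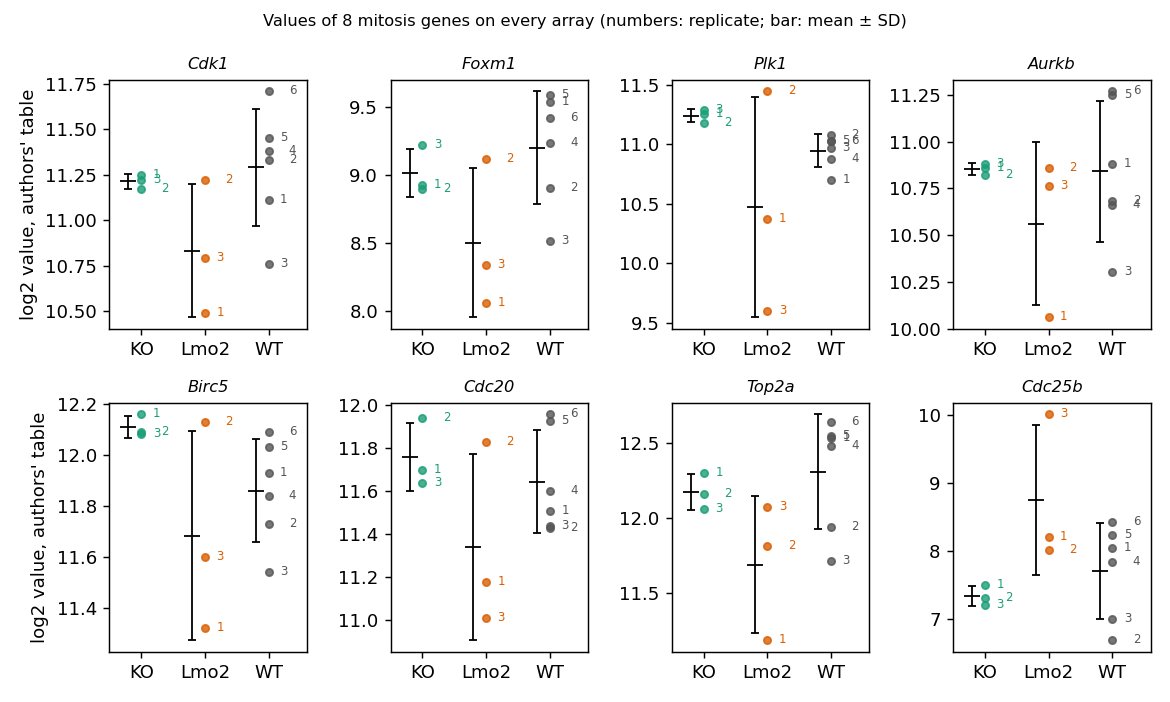
Log2 values of Cdk1, Foxm1, Plk1, Aurkb, Birc5, Cdc20, Top2a and Cdc25b on every array, with Lmo2 Lyl1-knockout (KO), Lmo2 and wild-type (WT) from left to right. Points carry the replicate number, and bars give mean ± SD. Vertical scales differ between panels. Lmo2 replicate 1 is the lowest Lmo2 point for Cdk1, Foxm1, Aurkb, Birc5 and Top2a, and the 3 KO points lie close together.

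In the spindle checkpoint, Mad2l1, which blocks Cdc20 at unattached kinetochores, read 11.53, 11.61 and 11.72 in Lmo2 Lyl1-knockout, 10.79, 11.72 and 10.82 in Lmo2 and 11.20 to 11.62 (median 11.51) in wild-type thymocytes. As with Plk1, none of the Lmo2 arrays was inside the wild-type range. Bub1b differed by -0.23 ± 0.17 and Bub3 by -0.13 ± 0.19 between Lmo2 and wild-type. Ttk, the kinase that recruits the checkpoint to kinetochores, read 5.60, 5.55 and 5.34 in Lmo2 Lyl1-knockout, 5.00, 5.99 and 5.26 in Lmo2 and 4.90 to 6.04 (median 5.39) in wild-type thymocytes, where only 3 of 6 arrays detected this probe.

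Among genes of anaphase, Cdc20 read 11.70, 11.94 and 11.64 in Lmo2 Lyl1-knockout, 11.18, 11.83 and 11.01 in Lmo2 and 11.43 to 11.96 (median 11.55) in wild-type thymocytes. Lmo2 replicates 1 and 3 were below every wild-type array. The differences were 0.42 ± 0.23 for Lmo2 Lyl1-knockout against Lmo2 (adjusted p = 0.313) and -0.31 ± 0.20 for Lmo2 against wild-type (0.362). Cdca3, a factor in the destruction of the mitosis inhibitor Wee1, read 11.09 on both of these Lmo2 arrays, below the wild-type range of 11.40 to 12.26. The ubiquitin-conjugating enzyme Ube2c and the securin gene Pttg1, both dim, differed by 0.07 ± 0.33 and -0.02 ± 0.26 between Lmo2 and wild-type.

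At the centromere, Spc25, a subunit of the Ndc80 complex that grips microtubules, read 10.01, 10.19 and 10.21 in Lmo2 Lyl1-knockout, 9.05, 10.18 and 9.43 in Lmo2 and 9.30 to 10.00 (median 9.62) in wild-type thymocytes. The Lmo2 Lyl1-knockout arrays all lay above the wild-type ones, by a narrow margin for replicate 1, and the difference of 0.47 ± 0.23 did not pass the test (adjusted p = 0.441). Cenpf, a large kinetochore protein, read 5.29, 5.63 and 5.81 in Lmo2 Lyl1-knockout, 5.33, 5.78 and 6.55 in Lmo2 and 5.65 to 6.74 (median 6.26) in wild-type thymocytes. Its groups overlapped, and its difference between Lmo2 Lyl1-knockout and wild-type was -0.68 ± 0.29 (adjusted p = 0.379). A dimmer kept probe of Cenpf differed by -0.076 there (limma adjusted p = 0.932 over all kept probes). Cenpa, the histone H3 variant of centromeres, stayed within 12.74 to 13.34 on all 12 arrays.

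Of the spindle motors, Kif11, the kinesin that pushes spindle poles apart, read 9.85, 9.76 and 9.59 in Lmo2 Lyl1-knockout, 8.76, 10.23 and 9.60 in Lmo2 and 9.58 to 10.75 (median 10.23) in wild-type thymocytes. Lmo2 replicate 1 lay 1.43 below the wild-type mean, the lowest of the 39 genes on that array, and the group difference was -0.66 ± 0.31 (adjusted p = 0.207). Kif22, Kif2c and Kif4 had negative differences between Lmo2 and wild-type and the microtubule proteins Nusap1 and Tpx2 positive ones (0.27 ± 0.18 and 0.21 ± 0.26), none past the threshold. For cytokinesis, Kif23, a motor of the central spindle, read 12.02, 12.37 and 12.22 in Lmo2 Lyl1-knockout, 11.61, 12.14 and 11.63 in Lmo2 and 11.60 to 11.94 (median 11.77) in wild-type thymocytes. Its Lmo2 Lyl1-knockout arrays were all above the wild-type range, with a difference of 0.44 ± 0.16, the lowest adjusted p of the 39 genes in that comparison (0.292).

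Among chromosome structure genes, Top2a, the topoisomerase that untangles sister chromatids, read 12.30, 12.16 and 12.06 in Lmo2 Lyl1-knockout, 11.18, 11.81 and 12.07 in Lmo2 and 11.71 to 12.64 (median 12.51) in wild-type thymocytes. Here Lmo2 replicate 3 was the highest of the Lmo2 arrays, and replicate 1 alone was below the wild-type range. The differences were -0.62 ± 0.24 for Lmo2 against wild-type (adjusted p = 0.120) and 0.49 ± 0.28 for Lmo2 Lyl1-knockout against Lmo2 (0.343). A dimmer Top2a probe differed by 0.87 in the second comparison with an adjusted p of 0.0229 over all kept probes, so the probes of this gene disagree in their call. Ncapd2, a condensin subunit, read 11.68, 11.81 and 11.96 in Lmo2 Lyl1-knockout, 11.13, 11.67 and 11.72 in Lmo2 and 11.39 to 12.67 (median 12.25) in wild-type thymocytes, with a difference of -0.61 ± 0.28 between Lmo2 and wild-type (0.188). Ncapg, another condensin subunit and dim, read 5.75, 6.46 and 6.59 in Lmo2 Lyl1-knockout, 5.53, 6.60 and 4.62 in Lmo2 and 4.84 to 6.58 (median 5.28) in wild-type thymocytes, with all groups overlapping and no detection on Lmo2 replicate 3 or on 4 of 6 wild-type arrays. Smc4, the ATPase of condensin, was above the wild-type range on Lmo2 replicate 3, at 9.89 against 8.37 to 9.71.

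In the comparison of Lmo2 with wild-type, 0 of 39 mitosis genes passed an adjusted p under 0.05 (limma, Benjamini-Hochberg over all genes), against 12.5% of all genes tested. At an unadjusted p under 0.05 there were 5, of which Cdk1, Foxm1, Ncapd2 and Top2a were lower and Cdc25b higher, against 26.2% of all genes. Differences were below 0 for 27 genes and above 0 for 12 (48.2% of all genes above 0), with a median of -0.13 (all genes -0.02), and no gene's groups were free of overlap (14.8% of all genes). The 95% interval held 0 for 34 genes and reached past a 1.5-fold difference for 30, so differences of that size were not excluded for most of them. The counts moved with single arrays. Without Lmo2 replicate 2, Foxm1, Plk1, Cdca8, Mad2l1 and Cdca3 were lower past the threshold (5 of 39, against 12.7% of all genes past in that fit) and the median was -0.40. Without replicate 1 none passed (11.4% of all genes) and the median was 0.0026, and without wild-type replicate 3 Foxm1 and Top2a passed as lower (13% of all genes).

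In the comparison of Lmo2 Lyl1-knockout with Lmo2, again 0 of 39 passed (10.4% of all genes). Those at an unadjusted p under 0.05 were Plk1, Mad2l1, Spc25 and Kif23, higher, and Cdc25b, lower (22.7% of all genes). Differences were above 0 for 34 genes and below 0 for 5, against 50.6% of all genes above 0, and the median was 0.24 (all genes 0.01). Cdc25b was the 1 gene whose groups did not overlap (27.3% of all genes). Without Lmo2 replicate 2, Melk, Plk1, Birc5, Cdca8, Mad2l1, Spc25 and Kif23 were higher past the threshold (7 of 39, against 11.9% of all genes past in that fit) and the median was 0.44. Without replicate 1 none passed (10.3% of all genes), 22 genes were above 0 and the median was 0.12.

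In the comparison of Lmo2 Lyl1-knockout with wild-type, 0 of 39 passed (1.05% of all genes), and Cenpa, Kif23 and Cenpf were at an unadjusted p under 0.05 (12.2% of all genes). The median difference was 0.11 (all genes -0.01), with 25 genes above 0 and 14 below (48.6% of all genes above 0). Melk, Plk1, Spc25 and Kif23 were higher with no overlap (4.57% of all genes in that direction). The 3 comparisons share arrays, so they are given side by side and not set against each other.

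**Figure D3:**
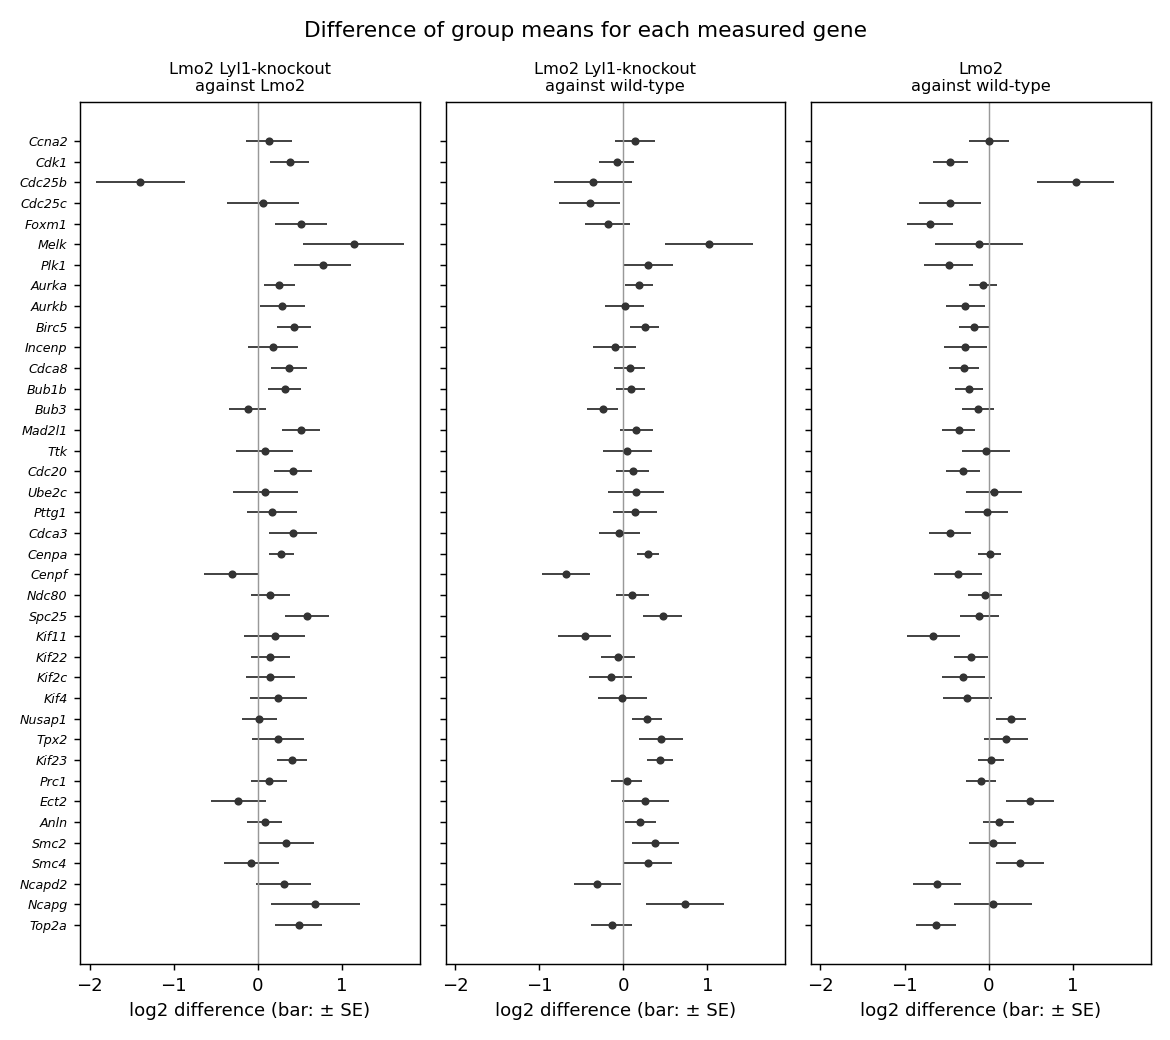
Log2 difference of group means ± SE for each of the 39 genes, for Lmo2 Lyl1-knockout against Lmo2 (left), Lmo2 Lyl1-knockout against wild-type (middle) and Lmo2 against wild-type (right). In the left panel 34 points lie right of 0 and Cdc25b lies farthest left. In the right panel 27 points lie left of 0 and Cdc25b lies farthest right.

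Each Lmo2 array was then set alone against the 6 wild-type arrays, as a description without a test. On Lmo2 replicate 1, 21 of 39 genes lay below all wild-type arrays (25.3% of all genes) and 0 above (21.2%), and 31 lay below the wild-type mean (54.1%), with a median of -0.50. These 21 included the kinases Cdk1, Plk1 and Aurkb, Cdc20, all 3 of Kif11, Kif22 and Kif2c, Top2a and Prc1, the bundler of the central spindle. On Lmo2 replicate 2, 0 genes lay below all wild-type arrays (23.8%) and 14 above (21.2%), and only 7 lay below the wild-type mean (52.1%), with a median of 0.24. They were Melk, Plk1, Birc5, Mad2l1, Ube2c, Ndc80, Spc25, Nusap1, Tpx2, Kif23, Ect2, Anln, Smc2 and Ncapg. On Lmo2 replicate 3, 11 lay below (24.8%) and Cdc25b and Smc4 above (29.9%), and 30 lay below the wild-type mean (46.3%), with a median of -0.23.

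The order of the 3 Lmo2 arrays was shared by many of the genes. Replicate 1 lay below replicate 3 and replicate 3 below replicate 2 for 22 of 39 genes (56.4%), an order seen in 14% of all genes. Replicate 2 was the highest of the 3 for 31 genes (30.1% of all genes), replicate 1 the lowest for 27 (34.9%). Replicate 1 was also the lowest of all 12 arrays for 16 genes (12.9% of all genes). The exceptions to replicate 2 as the highest were Pttg1, highest on replicate 1, and Cdc25b, Incenp, Cenpf, Kif4, Smc4, Ncapd2 and Top2a, highest on replicate 3. By role, medians on Lmo2 replicates 1, 2 and 3 were -0.65, 0.20 and -0.32 for the cyclin and Cdk1 group. They were -0.60, 0.12 and -0.17 for the passenger complex and -0.66, 0.27 and -0.25 for spindle motors and microtubule proteins. For central spindle and cytokinesis they were -0.20, 0.52 and -0.05. The spindle checkpoint had -0.43, 0.17 and -0.29, and the centromere and kinetochore -0.58, 0.33 and -0.05. In the remaining roles replicate 3 was the lowest. Medians there were -0.43, 0.35 and -0.74 for mitotic kinases and -0.17, 0.18 and -0.69 for anaphase and mitotic exit. Condensin and chromosome structure had 0.0017, 0.048 and -0.40.

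**Figure D4:**
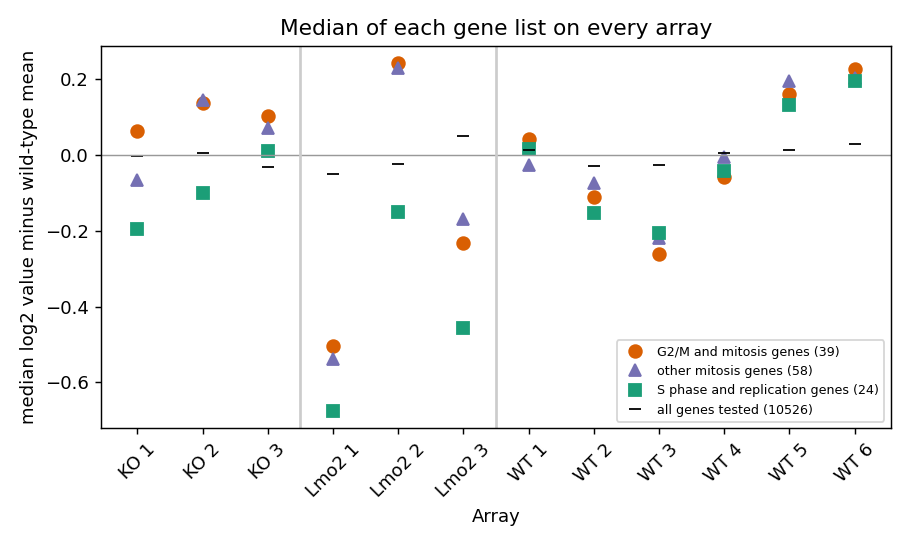
Median of log2 value minus wild-type mean on each array for the 39 mitosis genes, 58 other mitosis genes, 24 S phase genes and all 10526 genes tested, with Lmo2 Lyl1-knockout (KO) left, then Lmo2, then wild-type (WT). The mitosis genes sit at -0.50, 0.24 and -0.23 on the Lmo2 arrays, while the median of all genes stays near 0.

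The Lmo2 Lyl1-knockout arrays were alike in these genes. Their medians against the wild-type mean were 0.06, 0.14 and 0.10, and the 6 wild-type arrays ran from -0.26 to 0.23. The median SD of the 39 genes was 0.13 over the Lmo2 Lyl1-knockout arrays, 0.51 over the Lmo2 arrays and 0.35 over the wild-type arrays, against 0.18, 0.33 and 0.28 for all genes. The Lmo2 SD was larger than the Lmo2 Lyl1-knockout SD for 37 of 39 genes, as for 75.1% of all genes. With 3 arrays a group, this is a description of these arrays.

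**Figure D5:**
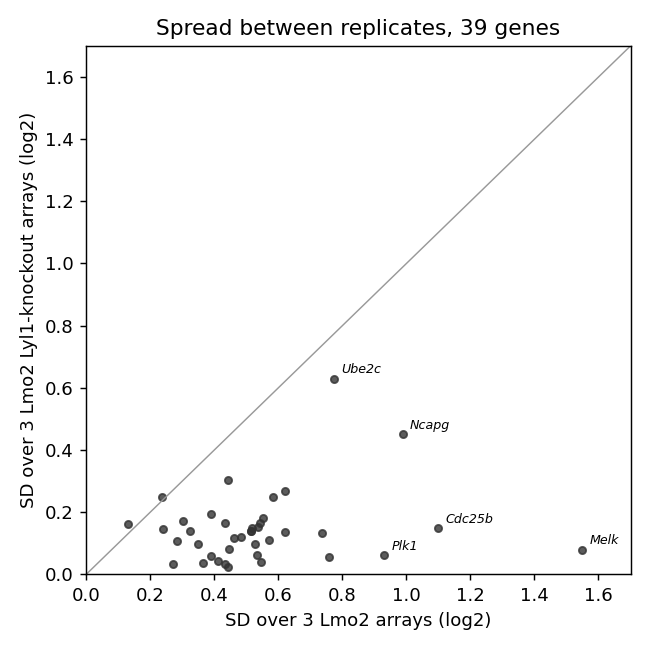
SD of log2 values over the 3 Lmo2 arrays (horizontal) and over the 3 Lmo2 Lyl1-knockout arrays (vertical) for each of the 39 genes, with the line of equal SD. Points below the line, 37 of 39, have the larger SD among Lmo2 arrays. The point farthest from the line, Melk, rests on a background value on Lmo2 replicate 3.

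Markers of other cells moved with the groups and arrays. Of the natural killer and innate lymphoid list, 8 of 11 markers were measured, with summed linear levels of 7600 to 9600 in Lmo2 Lyl1-knockout, 3620 to 6930 in Lmo2 and 13100 to 18500 in wild-type thymocytes, and Ncr1 was not detected anywhere. For myeloid markers, 13 of 15, the sums were 37800 to 87200 in Lmo2 Lyl1-knockout, 5030 to 17000 in Lmo2 and 5550 to 18600 in wild-type thymocytes, and Itgam was not detected. For gamma-delta T markers, 3 of 5, they were 3030 to 6120 in Lmo2 Lyl1-knockout, 21300, 1670 and 17300 on Lmo2 replicates 1, 2 and 3 and 3670 to 4900 in wild-type thymocytes. For mature T markers, 4 of 6, they were 3400 to 4030 in Lmo2 Lyl1-knockout, 2800, 935 and 1830 on those Lmo2 replicates and 4560 to 7470 in wild-type thymocytes. Lmo2 replicate 2, the highest for most mitosis genes, was thus the lowest Lmo2 array for these 4 lists. It was also the lowest Lmo2 array for the B (538), dendritic (2220), erythroid (57.4) and stroma (214) lists. The lowest sum on replicate 2 is therefore not particular to the 4 lists. For the immature thymocyte list its sum (42800) lay close to that of replicate 1 (43100). By the median of that list, replicate 1 was the lowest Lmo2 array (-0.19 from the wild-type mean) and replicate 2 the highest (-0.0028). For co-receptors of later thymocytes, 2 of 3, the order differed: the sums were 5930 to 6110 in Lmo2 Lyl1-knockout, 2190, 1510 and 940 on Lmo2 replicates 1, 2 and 3 and 5520 to 9390 in wild-type thymocytes. Their gene Cd8b1 fell by 2.26 on the log2 scale in Lmo2 against wild-type (adjusted p = 7.19e-05) and rose by 2.08 in Lmo2 Lyl1-knockout against Lmo2 (0.000482). Markers of a list did not all move alike in Lmo2 against wild-type, where 12.5% of all genes passed. Of the gamma-delta T markers, Sox13 rose (1.68, limma adjusted p = 7.25e-05), Blk fell (-1.37, 0.0389) and Cd163l1 did not pass (0.78 ± 1.00). Of the 13 measured myeloid markers, C1qb, C1qc and Cd14 rose and Mpo fell. A sum thus does not speak for every gene of its list. The part of these markers in the mitosis gene values was not tested.

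The wild-type arrays were not uniform in these genes. For wild-type replicates 4 to 6 against 1 to 3, 2 of 39 genes passed the test (6.7% of all genes), and 21 did not overlap, 14 higher and 7 lower (39% of all genes in either direction), with a median difference of 0.25 (all genes 0.03). Ncapd2 rose, at 12.37, 12.61 and 12.67 on replicates 4 to 6 and 12.12, 11.58 and 11.39 on replicates 1 to 3 (0.86 ± 0.21; adjusted p = 0.039). Ttk fell, at 5.04, 5.06 and 4.90 on replicates 4 to 6, none of which detected it, and 6.04, 5.91 and 5.73 on replicates 1 to 3, so it was at least 1.44-fold lower (adjusted p = 0.038). A second kept Ttk probe differed by -0.05 (adjusted p = 0.929 over all kept probes), and the Ttk call was lost with the mean over probes and with a robust eBayes trend. In this comparison 12 of 24 genes with several kept probes had probes of opposite sign, and 5 other probes, of Bub1b, Cdc25c, Cenpa and Ncapd2, passed the threshold. Probes of opposite sign were found for 5 of the 24 between Lmo2 Lyl1-knockout and Lmo2, 11 between Lmo2 Lyl1-knockout and wild-type and 8 between Lmo2 and wild-type. The largest difference was that of Cdc25c, 0.98 ± 0.33, which did not pass (0.088). Cdc25b differed by 0.92, and Cdk1, Cdc20, Kif11, Kif22, Kif2c and Kif4 were among those higher with no overlap, Kif23, Tpx2 and Nusap1 among those lower. Both calls were lost without any 1 of wild-type replicates 2 to 6 or of the 3 Lmo2 Lyl1-knockout arrays, and the Ttk call also without wild-type replicate 1. Set against wild-type replicates 4 to 6 alone, Lmo2 arrays were lower past the threshold in Cdk1, Foxm1, Incenp, Ncapd2 and Top2a and higher in Ect2 (6 of 39, against 23% of all genes), and set against replicates 1 to 3 alone in none (7.03% of all genes). Dendritic markers, 5 of 7, differed between these wild-type sets too, with sums of 4340 to 7170 on replicates 4 to 6 and 15000 to 17300 on replicates 1 to 3, and their part in the result was not tested.

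Other genes of division were read in the same way. Of 65 further mitosis genes 58 were measured, and their medians were -0.54, 0.23 and -0.17 on Lmo2 replicates 1, 2 and 3. Only Mybl2, which encodes B-Myb, passed in Lmo2 against wild-type (1 of 58, against 12.5% of all genes). It read 9.43, 9.86 and 9.42 in Lmo2 and 9.93 to 10.31 in wild-type thymocytes, and fell by 0.61 on the log2 scale (SE 0.15; adjusted p = 0.0223). None of the 58 passed between Lmo2 Lyl1-knockout and Lmo2 (10.4% of all genes) or between Lmo2 Lyl1-knockout and wild-type (1.05%). At an unadjusted p under 0.05 there were 5 and 3 (8.62% and 5.17%, against 22.7% and 12.2% of all genes). Of the 7 measured genes of the MuvB and DREAM complexes none passed in a genotype comparison, at an unadjusted p under 0.05 either. Of all genes, 26.2% were at that unadjusted level in Lmo2 against wild-type. Of 12 measured genes of the anaphase-promoting complex and its activators, 2 rose in Lmo2 against wild-type, against 12.5% of all genes past the threshold. They were Anapc11 (0.74 ± 0.15, limma adjusted p = 0.00585) and Fzr1, the Cdh1 activator of mitotic exit (0.48 ± 0.11, 0.0135). Anapc11 was dim, at 5.59, 5.75 and 5.90 in Lmo2 and 4.88 to 5.28 in wild-type thymocytes. Its wild-type values lie near those at which Ttk was not detected (4.90 to 5.26), so the size of its rise is uncertain. Anapc15 rose in Lmo2 Lyl1-knockout against Lmo2 (0.80 ± 0.22, limma adjusted p = 0.0418), against 10.4% of all genes past the threshold.

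Genes of S phase, which comes before mitosis, were counted for Lmo2 against wild-type. Of 24 measured, 0 rose and Mcm10, Ccne1, Gins2 and Tk1 fell (adjusted p 0.0192 to 0.0499), against 12.5% of all genes past the threshold. All 24 differences lay below 0 (48.2% of all genes lay above), and the median was -0.38. Ccne1, Gins2 and Tk1 were higher on wild-type replicates 4 to 6 than on 1 to 3, while Mcm10 overlapped. Ccne1 read 8.43 to 8.79 and 7.38 to 7.86 in turn, and Tk1 11.72 to 11.87 and 11.08 to 11.35. On Lmo2 replicate 2, Gins2 (9.97) and Tk1 (11.19) lay inside the wild-type range, Mcm10 (11.56) and Ccne1 (7.31) below it. Against Lmo2, 1 rose in Lmo2 Lyl1-knockout (Mcm10, 0.62 ± 0.18; adjusted p = 0.0412), against 10.4% of all genes past, 23 lay above 0 (50.6% of all genes), and the median was 0.33. None passed between Lmo2 Lyl1-knockout and wild-type (1.05% of all genes), with 1 at an unadjusted p under 0.05 (12.2% of all genes). On Lmo2 replicates 1, 2 and 3 the S phase genes had medians of -0.67, -0.15 and -0.46. Those of the mitosis genes were -0.50, 0.24 and -0.23. Both lists were thus lowest on replicate 1 and highest on replicate 2. The S phase medians of the wild-type arrays ran from -0.21 to 0.19.

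Of 11 measured CDK inhibitors and quiescence genes, Cdkn1a, which encodes the inhibitor p21, read 7.98, 7.87 and 8.10 in Lmo2 Lyl1-knockout, 6.72, 5.56 and 5.15 in Lmo2 and 7.63 to 8.83 in wild-type thymocytes. It fell in Lmo2 against wild-type (-2.52 ± 0.32; adjusted p = 0.000234) and rose in Lmo2 Lyl1-knockout against Lmo2 (2.17 ± 0.37; 0.00221). Btg1, Cdkn1c, Cdkn2a and Foxo3 rose in Lmo2 against wild-type, Cdkn1c on replicates 1 and 2 alone (8.47 and 8.11, with 5.22 on replicate 3 and 5.20 to 5.64 in wild-type). Foxo3, a forkhead factor of resting cells, fell in Lmo2 Lyl1-knockout against Lmo2 (-1.48 ± 0.21; 0.000539), as did Cdkn2a, the Ink4a and Arf locus, at least 2.18-fold (0.000786), which was not detected on any Lmo2 Lyl1-knockout array. Btg1, an antiproliferative gene of resting lymphocytes, rose in Lmo2 Lyl1-knockout against wild-type (1.27 ± 0.18, limma adjusted p = 0.00416). In Lmo2 against wild-type 4 of the 11 genes rose and 1 fell, against 12.5% of all genes past the threshold. In Lmo2 Lyl1-knockout against Lmo2, 1 rose and 2 fell (10.4% of all genes). Against wild-type, 1 rose and 0 fell in Lmo2 Lyl1-knockout (1.05% of all genes).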

How the data were processed

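RNA from 12 samples was read on 1-colour Illumina arrays. The deposited raw table holds a linear intensity for each probe and array. Each intensity has its detection p-value, per the file headers. Per the submitters' processing notes, the tools were BeadStudio and limma (no versions); the background step is not given in the sources. The deposited value table holds log2 values whose array medians were 4.88 to 4.89. Every column was matched to 1 raw array (r = 0.9999), so scale and direction are known and no centring was found.

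Of 45281 probes, 34885 carried 1 symbol in the platform annotation, 18 several and 10378 none. Probes detected on at least 3 arrays were kept (20651), and the brightest probe stood for each gene. Values of the authors' table were fitted with limma 3.58.1 in R 4.3.3 over all 12 arrays, with 9 residual degrees of freedom, two-sided, with Benjamini-Hochberg adjustment over 10526 genes. Wild-type replicates 4 to 6 and 1 to 3 were compared in a second fit with 4 groups. Arrays limit precision by their number. The genes, lists and tests were chosen with earlier results of these data known. Values on every array are given for genes past the threshold, the 4 largest differences of each comparison and Top2a, Cdk1, Plk1, Aurkb, Birc5 and Cdc20, and Mad2l1, Kif23 and other genes were added after their values were seen. Of other lists, up to 6 genes past the threshold are named per comparison. Summed marker levels are sums of 2 to the power of the log2 value. Where a gene was not detected in a group, its fold is a bound against the lowest detected signal of each array. The fit was tested on simulated data for Lmo2 against wild-type over 10526 genes. It recovered 11 of 50 genes raised by 0.585 on the log2 scale, 27 of 50 raised by 1 and 46 of 50 raised by 2. Of 50 genes lowered by 1 it recovered 24. Far fewer genes were changed in the simulation than the 1319 that passed in the data, so these rates may not carry over. Alternatives were neqc and nec from the raw intensities, other detection filters, the mean over probes, array weights, the compared groups alone, a robust eBayes trend, each wild-type set alone, the replicate block and leaving out each array. Replicate numbers were not used to pair the samples in the main fit.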

Additional observations from a re-analysis of the deposited data

How the results depend on the processing

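Values past the threshold kept their direction for every mitosis gene under all alternatives run. For Lmo2 against wild-type, array weights gave 2 genes past the threshold (Ncapd2 and Top2a, lower; 12.3% of all genes) and wild-type replicates 4 to 6 alone gave 6 (23%), while leaving out 1 array gave 0 to 5 genes and medians of -0.40 to 0.0026. For Lmo2 Lyl1-knockout against Lmo2, the median was 0.32 with nec and a common median, where the median of all genes was 0.098. The mitosis gene median was 0.18 with no detection filter and 0.31 with array weights. Leaving out 1 array gave 0 to 7 genes and medians of 0.12 to 0.44. For Lmo2 Lyl1-knockout against wild-type, array weights gave 8 genes (Melk, Spc25, Nusap1, Tpx2, Kif23, Smc2 and Ncapg higher, Cenpf lower), against 22.5% of all genes, and wild-type replicates 4 to 6 alone gave 1 (Ncapd2, lower), against 10.2%. Its median was 0.21 with nec (all genes 0.091) and 0.048 to 0.15 leaving out 1 array. With wild-type replicates 1 to 3 alone it was 0.16, and with replicates 4 to 6 alone 0.046. For wild-type replicates 4 to 6 against 1 to 3, nec gave 0 genes and a median of 0.53 (all genes 0.29), the mean over probes 4 genes (6.05% of all genes), array weights 22 (37.8%), the 2 sets alone 8 (15%), and leaving out 1 array 0 to 4. The cause was not tested. With the replicate number as a block, no mitosis gene passed in any genotype comparison (0 in each). The median for Lmo2 Lyl1-knockout against wild-type was then 0.16, the same as with wild-type replicates 1 to 3 alone, because blocks 4 to 6 hold wild-type arrays only. Same-numbered samples of Lmo2 Lyl1-knockout and Lmo2 correlated at 0.02 to 0.13, and the same number was the best match for replicates 1 and 2. With 3 arrays a group, these values cannot show whether the numbers pair the samples. Differences that passed in neither setting changed sign in 80 of 897 values for Lmo2 against wild-type, 27 of 819 for Lmo2 Lyl1-knockout against Lmo2 and 66 of 897 for Lmo2 Lyl1-knockout against wild-type. In data simulated for Lmo2 against wild-type (3 against 6 arrays), 11 of 50 genes raised 1.5-fold were recovered. Fewer genes were changed there than passed in the data, so this rate may not carry over. The 6 genes not detected on every array limit what signal over background can show.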
